A study of Mus musculus with 8 samples.

Results

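The BCL2 family decides whether a developing B cell lives or dies, and 10 of its genes were followed here at the RNA level in mouse pre-B cells with and without *Upf1*. The genes were taken from a fixed list by symbol, *Bcl2*, *Bcl2l1*, *Mcl1*, *Bax*, *Bak1*, *Bcl2l11*, *Bbc3*, *Bmf*, *Pmaip1* and *Bid*, and all 10 of them were matched to Entrez identifiers among the 27179 genes of the count table. All 10 passed the filter on low counts and belonged to the 17700 genes tested. The rule names the genes and uses no measured value, but the list was drawn up with earlier results of these data known.

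RNA-seq of rRNA-depleted total RNA covered 8 libraries of B cell precursors sorted from mouse bone marrow, with 2 libraries in each of 4 groups. Early LPre-B cells (large, CD43+ and CD2- cells that express no surface IgM) and sPre-B cells (small, CD25+ and CD2+ cells) came from Ctrl and cKO mice. The Ctrl mice were Mb1 +/+ and the cKO mice Mb1 Cre/+, and all 4 groups were Upf1 Flox/Flox and carried 1 already rearranged heavy chain allele (Igh B1-8hi/+). The Cre recombinase of cKO mice is expressed from the *Cd79a* (Mb1) locus and is active in the B lineage. Mice of both sexes were age-matched. The labels do not name the mice behind a library, and the study's methods describe plotted points in general as biological replicates. *Upf1* encodes an RNA helicase required for nonsense-mediated mRNA decay, and the study asked how its loss alters gene expression from the early LPre-B to the sPre-B stage.

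Proteins of the BCL2 family meet at the outer membrane of the mitochondrion. BCL2, BCL-XL (from *Bcl2l1*) and MCL1 keep the membrane closed, whereas BAX and BAK (from *Bak1*) form the pores that release cytochrome c. BH3-only proteins, among them BIM (from *Bcl2l11*), PUMA (from *Bbc3*), BMF, NOXA (from *Pmaip1*) and BID, bind the survival proteins through a short helix, the BH3 domain, and some of them also activate BAX and BAK. In pre-B cells, signals through the IL-7 receptor and the pre-B cell receptor are known to set the levels of survival and BH3-only proteins.

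The BH3 domain is the stretch of sequence by which the BH3-only genes belong to the family. It is given here for *Bcl2l11*, *Bbc3*, *Bmf* and *Bid* because most of the death-gene changes described here fell on these genes. Each line gives 48 coding bases of the GENCODE vM21 transcript, 5′ to 3′ on the coding strand, with the 6 codons of the conserved BH3 core in capitals (build mm10, also called GRCm38). The stretches lie at chr2:128147135-128147182 (plus strand, *Bcl2l11*), chr7:16313758-16313805 (plus strand, *Bbc3*), chr2:118545094-118545141 (minus strand, *Bmf*) and chr6:120897283-120897330 (minus strand, *Bid*), each inside 1 coding exon.
Bcl2l11: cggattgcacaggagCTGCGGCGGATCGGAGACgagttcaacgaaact
Bbc3: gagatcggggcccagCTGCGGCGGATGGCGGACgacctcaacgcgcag
Bmf: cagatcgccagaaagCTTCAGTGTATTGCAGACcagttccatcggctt
Bid: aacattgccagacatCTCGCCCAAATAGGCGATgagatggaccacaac

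Over the 18 bases in capitals, *Bbc3* and *Bcl2l11* were identical at 15 positions. *Bmf* matched each of these 2 genes at 12 positions, and *Bid* matched *Bmf* at 7. The same core was found once in the coding sequence of each of the other members examined, namely *Bcl2*, *Bcl2l1*, *Mcl1*, *Bax* and *Bak1*. *Pmaip1* was left out of this search and its sequence was not analysed here.

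The libraries held 68516857 to 160426338 counts, so that 3 counts corresponded to 0.0217 to 0.0426 CPM (counts of a gene per 1000000 counts of the library, after scaling), and the lowest member count in any library was 55 (*Bcl2*, Ctrl sPre-B replicate 2). The *Upf1* gene-level count was not lower in cKO libraries (213 and 237 CPM in Ctrl early LPre-B, 244 and 258 in cKO early LPre-B, 186 and 198 in Ctrl sPre-B, 282 and 293 in cKO sPre-B), which is no check of the labels because most exons of *Upf1* lie outside the floxed part. *Cd79a*, the locus that carries Cre, was at 543 to 1602 CPM in the Ctrl libraries and at 160.0 to 405 CPM in the cKO libraries. The sPre-B gate markers *Il2ra* (CD25) and *Cd2* together were at 23.5 to 59.3 CPM in early LPre-B and 631 to 667 CPM in sPre-B libraries. The early LPre-B gate markers *Kit* and *Spn* (CD43) together were at 217 and 199 CPM in Ctrl and 124 and 139.5 CPM in cKO early LPre-B libraries, and at 49.2 to 63.0 CPM in sPre-B libraries. *Kit* was lower (Log2FC = -2.51, SE 0.45, adjusted P = 0.00387) and *Spn* was lower (Log2FC = -0.57, SE 0.14, adjusted P = 0.0172) in cKO than in Ctrl early LPre-B cells. The 12 pro- and pre-B markers, all found, summed to 4029 and 3843 CPM in Ctrl and 2419 and 2531 CPM in cKO early LPre-B libraries, and to 9158 and 9397 CPM in Ctrl and 6159 and 6169.7 CPM in cKO sPre-B libraries. Of these, *Dntt* was at 272 and 239.9 CPM in Ctrl and 26.8 and 24.8 CPM in cKO early LPre-B libraries, and *Rag1* at 409 and 385 CPM against 44.0 and 74.9 CPM. T cell markers summed to at most 1.76 CPM (5 of 5 genes found) and NK markers to at most 3.78 CPM (3 of 3). The 8 myeloid markers summed to 111 and 134 CPM in Ctrl and 50.1 and 55.6 CPM in cKO early LPre-B libraries, and to 304 and 355 CPM in Ctrl and 211 and 243 CPM in cKO sPre-B libraries, with *Itgam* the largest part (30.4 to 262 CPM) and *Ly6g* at most 0.312 CPM. The 3 plasma cell markers summed to 89.3 and 74.1 CPM in Ctrl and 41.5 and 47.3 CPM in cKO early LPre-B libraries, and to 109 and 69.8 CPM in Ctrl and 35.6 and 59.1 CPM in cKO sPre-B libraries. *Sdc1* was the largest part of these sums (30.2 to 90.6 CPM), with *Jchain* at most 2.32 CPM and *Prdm1* at most 15.7 CPM. Erythroid markers (5 of 6 found) summed to 15.1 and 16.5 CPM against 9.86 and 3.73 CPM in early LPre-B, and to 27.1 and 31.3 CPM against 16.2 and 9.34 CPM in sPre-B libraries. The 3 stroma markers summed to 5.63 to 9.15 CPM in the replicate 1 library of every group and to 0.577 to 1.49 CPM in the replicate 2 libraries, and the 2 megakaryocyte markers to 1.34 to 17.6 CPM. The gate, B lineage and other marker levels moved with stage, genotype or replicate number, and their part in the members' results was not tested. The 2 Ctrl replicate 2 libraries held 151 and 304 *Xist* counts with 19733 and 28205 Y-linked counts, against at least 290740 and at most 34 in the other 6 libraries, so the members' comparisons that hold Ctrl libraries are also given without those 2, as are counts of the further gene lists where they moved by over 1.5 times, a choice made after looking at the data.

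**Figure D1:**
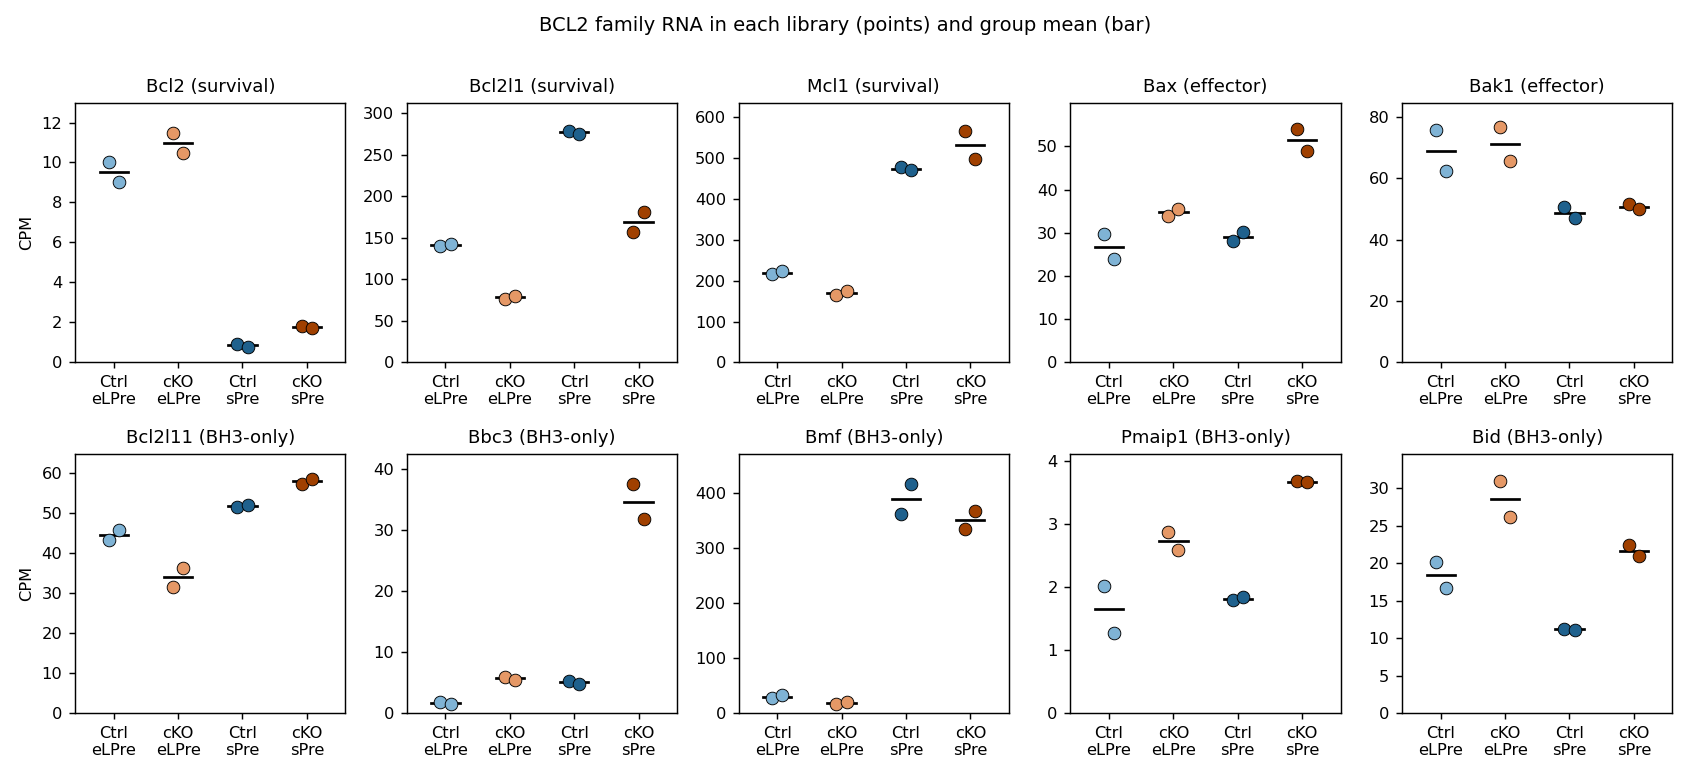
RNA level of each of the 10 BCL2 family genes in CPM (linear axis from 0, a separate scale per gene) in the 4 groups. Each point is 1 library and each bar the mean of 2 libraries. *Bmf* was high in both sPre-B groups, *Bcl2* was low there, and *Bbc3* stood out in cKO sPre-B cells at 31.9 and 37.5 CPM.

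Scaled by exon length, *Mcl1* RNA was the most abundant of the 10 genes in every group, at 64.2 CPM per kb in Ctrl early LPre-B and 156 CPM per kb in cKO sPre-B cells. *Bcl2* sat at the opposite end in sPre-B cells, with 0.0942 CPM per kb in Ctrl and 0.193 CPM per kb in cKO cells. *Bmf* ranked 5 in Ctrl early LPre-B cells (5.77 CPM per kb) and 2 in Ctrl sPre-B cells (74.1 CPM per kb). *Bbc3* ranked 9 in Ctrl early LPre-B cells (0.769 CPM per kb) and 6 in cKO sPre-B cells (16.3 CPM per kb). These ranks describe RNA, and neighbours in the order were not tested against each other.

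The first comparison followed the members from the early LPre-B to the sPre-B stage in Ctrl cells. Of the 10 genes, 4 rose (*Bcl2l1*, *Mcl1*, *Bbc3* and *Bmf*) and 3 fell (*Bcl2*, *Bak1* and *Bid*) by edgeR's quasi-likelihood test with an adjusted P under 0.05, where 60.2% of all tested genes passed the same test (29.1% higher and 31.1% lower). A call on 7 of 10 genes is thus close to the background of this comparison. The median Log2FC was 0.17 over the members and 0.02 over all genes. The counts were also 4 and 3 without the 2 Ctrl replicate 2 libraries, 5 and 3 with median-ratio size factors, and 4 to 5 and 2 to 3 with 1 library left out. A library is a sum over cells, so fewer cells of a kind and less RNA per cell cannot be told apart.

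Among the survival genes, *Bcl2* went down and the other two went up. *Bcl2* RNA was at 10.02 and 9.05 CPM in the Ctrl early LPre-B libraries and at 0.946 and 0.780 CPM in the Ctrl sPre-B libraries. It fell 11.01-fold (Log2FC = -3.46, SE 0.18, adjusted P = 1.84e-06, edgeR). *Bcl2l1*, encoding BCL-XL, was at 140.3 and 142 CPM in early LPre-B and at 279 and 275 CPM in sPre-B libraries, a 1.96-fold rise (Log2FC = 0.97, SE 0.10, adjusted P = 4.01e-05). *Mcl1*, whose protein is short-lived, went from 216 and 223 to 478 and 469.9 CPM (Log2FC = 1.11, SE 0.11, adjusted P = 3.36e-05). The groups did not overlap for any of the 3 survival genes. Here and below, lack of overlap between 2 and 2 libraries is a description, with no share over all genes beside it. The length-scaled sum of the 3 genes was higher in sPre-B (198 to 201 CPM per kb) than in early LPre-B libraries (94.9 to 97.1 CPM per kb).

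Of the pore formers, *Bak1* was called lower and *Bax* was not called in Ctrl cells. *Bax* was at 29.6 and 23.9 CPM before and at 28.1 and 30.1 CPM after the transition, with overlapping groups and a difference whose 95% interval ran from -0.16 to 0.39 in log2 (adjusted P = 0.421). Without Ctrl early LPre-B replicate 1, *Bax* was called higher (Log2FC = 0.34, adjusted P = 0.0358). *Bak1* was at 75.5 and 62.2 CPM in early LPre-B and at 50.5 and 46.9 CPM in sPre-B libraries, 1.41-fold lower (Log2FC = -0.50, SE 0.12, adjusted P = 0.0055). That call did not hold when Ctrl early LPre-B replicate 1 was left out (Log2FC = -0.30, adjusted P = 0.0886) or when Ctrl sPre-B replicate 2 was left out (Log2FC = -0.39, adjusted P = 0.0708). *Bak1* shares 614 exon bases, 25.5% of its exon length, with *Ggnbp1* on the other strand, and since the counting ignored strand, reads over these bases cannot be assigned to either gene. *Ggnbp1* itself was at 1.12 to 2.42 CPM in the 8 libraries.

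Among the BH3-only genes, *Bmf* showed the widest change of all members. *Bmf*, whose protein is known to bind the dynein light chain DLC2, was at 27.2 and 33.4 CPM in Ctrl early LPre-B and at 363 and 416 CPM in Ctrl sPre-B libraries. The rise was 12.9-fold (Log2FC = 3.68, SE 0.15, adjusted P = 9.08e-07) and ranked 59 by p-value among the 17700 genes. *Bbc3*, a direct target gene of p53 that can also be induced without it, rose 3.08-fold from a low level, from 1.79 and 1.47 to 5.31 and 4.82 CPM (Log2FC = 1.62, SE 0.16, adjusted P = 3.73e-05). Both genes lay entirely above their early LPre-B values in sPre-B libraries.

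*Bid*, whose protein is cleaved by caspase-8, went the other way. It was at 20.2 and 16.6 CPM in early LPre-B and at 11.3 and 11.1 CPM in sPre-B libraries (Log2FC = -0.72, SE 0.14, adjusted P = 0.00195). *Bcl2l11* (BIM) was at 43.2 and 45.8 CPM before and 51.4 and 52.0 CPM after, without overlap but short of the threshold (Log2FC = 0.22, 95% interval 0.01 to 0.43, adjusted P = 0.0722). *Bcl2l11* did pass with median-ratio size factors (Log2FC = 0.24, adjusted P = 0.0448) and without Ctrl early LPre-B replicate 2 (Log2FC = 0.33, adjusted P = 0.0305). *Pmaip1* (NOXA) was near the bottom throughout, at 2.03 and 1.28 CPM and then 1.80 and 1.84 CPM (adjusted P = 0.672). *Bmf* made up 29.0% and 35.5% of the length-scaled BH3-only RNA in the Ctrl early LPre-B libraries and 84.4% and 86.3% in the Ctrl sPre-B libraries, and *Bcl2l11* went from 30.2% and 31.8% to 7.83% and 7.06%.

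The same transition was then followed in cKO cells. Here 6 of the 10 members rose (*Bcl2l1*, *Mcl1*, *Bax*, *Bcl2l11*, *Bbc3* and *Bmf*) and 3 fell (*Bcl2*, *Bak1* and *Bid*), where 62.6% of all tested genes passed (31.6% higher and 31.1% lower). The median Log2FC was 0.67 over the members and 0.05 over all genes. With 1 library left out, 6 members rose and 2 to 3 fell.

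*Bcl2* fell 6.21-fold in cKO cells, from 11.5 and 10.5 CPM to 1.80 and 1.73 CPM (Log2FC = -2.63, SE 0.17, adjusted P = 4.71e-06). *Bcl2l1* rose 2.16-fold, from 76.5 and 80.3 CPM to 158 and 181 CPM (Log2FC = 1.11, SE 0.10, adjusted P = 2.05e-05). *Mcl1* rose 3.15-fold, from 164 and 175 CPM to 567 and 499 CPM (Log2FC = 1.65, SE 0.11, adjusted P = 4.91e-06). As in Ctrl cells, *Bcl2* was the lowest of the 3 survival genes per kb of exon in the sPre-B libraries.

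Of the pore formers, *Bax* rose from 33.9 and 35.5 CPM to 54.0 and 48.9 CPM (Log2FC = 0.57, SE 0.12, adjusted P = 0.00314), and *Bak1* went from 76.7 and 65.7 CPM to 51.4 and 50.1 CPM (Log2FC = -0.49, SE 0.12, adjusted P = 0.00589). *Bmf* rose 18.2-fold, from 17.6 and 20.9 CPM to 334 and 367 CPM (Log2FC = 4.19, SE 0.16, adjusted P = 6.72e-07). *Bbc3* rose 6.06-fold, from 5.96 and 5.48 CPM to 37.5 and 31.9 CPM (Log2FC = 2.60, SE 0.15, adjusted P = 3.6e-06). Of the 10 members, these 2 had the largest rises in both genotypes.

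*Bcl2l11* rose from 31.6 and 36.3 CPM to 57.2 and 58.6 CPM (Log2FC = 0.77, SE 0.09, adjusted P = 0.000132). *Bid* was at 31.0 and 26.2 CPM in cKO early LPre-B and at 22.4 and 20.9 CPM in cKO sPre-B libraries (Log2FC = -0.40, SE 0.14, adjusted P = 0.0306). The call on *Bid* was lost without cKO early LPre-B replicate 1 (Log2FC = -0.28, adjusted P = 0.209), without cKO sPre-B replicate 1 (adjusted P = 0.0676) and without cKO sPre-B replicate 2 (adjusted P = 0.134). *Pmaip1* was at 2.88 and 2.59 CPM and then 3.69 and 3.66 CPM, which did not overlap but did not pass the test (Log2FC = 0.43, 95% interval -0.12 to 0.97, adjusted P = 0.152).

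**Figure D2:**
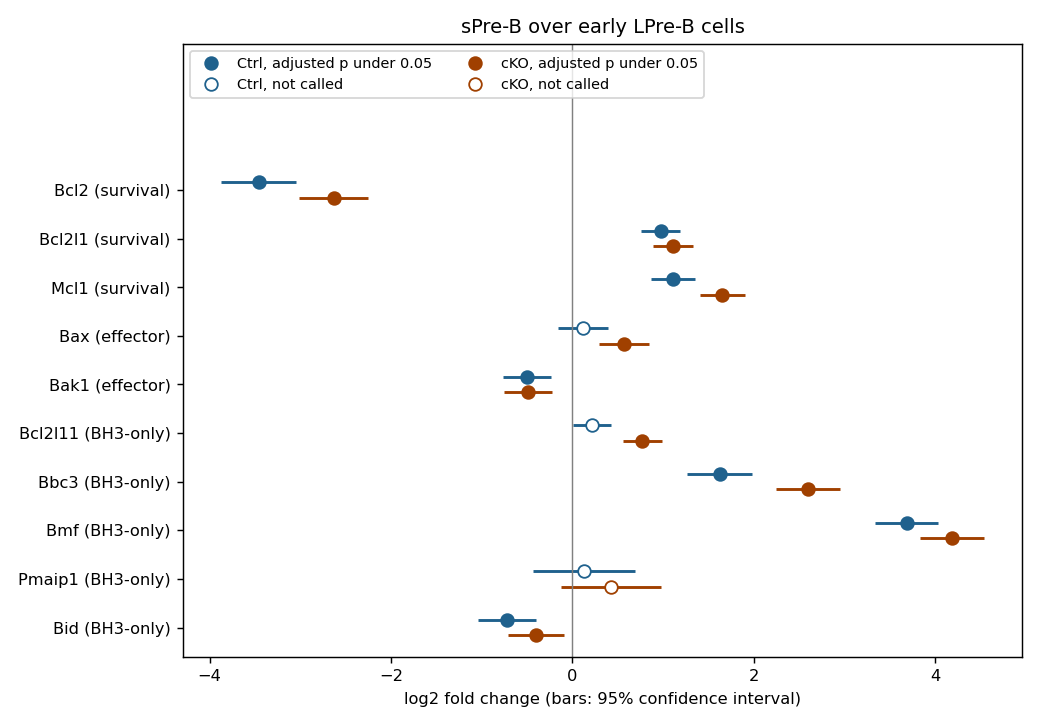
Log2FC of sPre-B over early LPre-B cells for the 10 members in Ctrl (blue) and cKO (brown) mice, with 95% confidence intervals from edgeR. Filled points passed an adjusted p of 0.05 and open points did not. *Bmf* lay farthest to the right (3.68 and 4.19) and *Bcl2* farthest to the left (-3.46 and -2.63).

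The next comparison asked what differed between cKO and Ctrl early LPre-B cells. *Bbc3*, *Bax* and *Bid* were higher and *Bcl2l1*, *Mcl1*, *Bcl2l11* and *Bmf* were lower in cKO cells, that is 7 of 10 members, where 31.3% of all tested genes passed the test (14.5% higher and 16.9% lower). The median Log2FC was 0.12 over the members and -0.06 over all genes. Without the 2 Ctrl replicate 2 libraries 2 members were higher (*Bbc3* and *Bid*) and 2 lower (*Bcl2l1* and *Bmf*), while *Mcl1* (adjusted P = 0.113), *Bax* (adjusted P = 0.104) and *Bcl2l11* (adjusted P = 0.0945) no longer passed.

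Of the survival genes, *Bcl2l1* and *Mcl1* were called lower and *Bcl2* was not called in cKO early LPre-B cells. *Bcl2l1* was at 76.5 and 80.3 CPM in cKO and at 140.3 and 142 CPM in Ctrl libraries, 1.80-fold lower (Log2FC = -0.85, SE 0.10, adjusted P = 0.000408). Its call held with any single library left out. *Mcl1* was at 164 and 175 CPM in cKO and 216 and 223 CPM in Ctrl libraries (Log2FC = -0.37, SE 0.11, adjusted P = 0.0269), but the call was lost when any of these 4 libraries was left out (adjusted P = 0.0708 without Ctrl replicate 1, 0.116 without Ctrl replicate 2, 0.17 without cKO replicate 1 and 0.0799 without cKO replicate 2). *Bcl2* was at 11.5 and 10.5 CPM in cKO and 10.02 and 9.05 CPM in Ctrl libraries (Log2FC = 0.20, 95% interval -0.15 to 0.56, adjusted P = 0.362). The length-scaled sum of the 3 genes was 65.9 and 69.7 CPM per kb in cKO against 94.9 and 97.1 CPM per kb in Ctrl libraries.

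*Bax* was at 33.9 and 35.5 CPM in cKO and at 29.6 and 23.9 CPM in Ctrl libraries (Log2FC = 0.37, SE 0.12, adjusted P = 0.0454). Its adjusted P was the highest of the 7 called members. It was lost without Ctrl early LPre-B replicate 2 (adjusted P = 0.101), cKO early LPre-B replicate 1 (0.126), cKO early LPre-B replicate 2 (0.175), cKO sPre-B replicate 1 (0.0681) or cKO sPre-B replicate 2 (0.0652), and its Log2FC was 0.57 without Ctrl early LPre-B replicate 1. *Bak1* overlapped between the groups (76.7 and 65.7 CPM in cKO, 75.5 and 62.2 CPM in Ctrl, 95% interval of the Log2FC -0.22 to 0.31, adjusted P = 0.795).

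The BH3-only genes split. *Bbc3* was 3.48-fold higher, at 5.96 and 5.48 CPM in cKO and 1.79 and 1.47 CPM in Ctrl libraries (Log2FC = 1.80, SE 0.16, adjusted P = 0.000125). *Bid* was 1.55-fold higher, at 31.0 and 26.2 CPM against 20.2 and 16.6 CPM (Log2FC = 0.63, SE 0.14, adjusted P = 0.00934), and was not called without cKO early LPre-B replicate 1 (adjusted P = 0.082). *Pmaip1* was at 2.88 and 2.59 CPM in cKO and 2.03 and 1.28 CPM in Ctrl libraries, just short of the threshold (Log2FC = 0.72, SE 0.24, adjusted P = 0.0542). *Pmaip1* passed by DESeq2 (adjusted P = 0.0327), without the expression filter (0.0488), in a fit blocked on replicate (0.0433) and without Ctrl early LPre-B replicate 1 (Log2FC = 1.13, adjusted P = 0.0176), and its Log2FC ranged from 0.48 to 1.13 with 1 library left out. For these 3 genes both cKO libraries lay above both Ctrl libraries.

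*Bmf* and *Bcl2l11* were lower. *Bmf* was at 17.6 and 20.9 CPM in cKO and 27.2 and 33.4 CPM in Ctrl early LPre-B libraries, 1.57-fold lower (Log2FC = -0.65, SE 0.14, adjusted P = 0.00816). *Bcl2l11* was at 31.6 and 36.3 CPM in cKO and at 43.2 and 45.8 CPM in Ctrl libraries, 1.31-fold lower (Log2FC = -0.39, SE 0.09, adjusted P = 0.0136). Both calls depended on Ctrl early LPre-B replicate 2 (adjusted P without it 0.0603 for *Bmf* and 0.0751 for *Bcl2l11*) and on cKO early LPre-B replicate 1 (adjusted P without it 0.0688 and 0.117). The summed length-scaled BH3-only RNA was 19.4 and 19.9 CPM per kb in cKO against 17.8 and 17.9 CPM per kb in Ctrl libraries.

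In sPre-B cells, 5 members were higher in cKO than in Ctrl cells (*Bcl2*, *Bax*, *Bbc3*, *Pmaip1* and *Bid*) and 1 was lower (*Bcl2l1*), where 34.7% of all tested genes passed (19.8% higher and 14.9% lower). The median Log2FC was 0.50 over the members and 0.01 over all genes, and without the 2 Ctrl replicate 2 libraries the counts were also 5 and 1. In cKO sPre-B libraries the 4 mature B cell markers together were at 371 and 603 CPM, against 226 and 300.1 CPM in Ctrl sPre-B libraries. Of these, *Fcer2a* was at 29.9 and 83.8 CPM in cKO and 5.33 and 6.03 CPM in Ctrl libraries. The 3 dendritic cell markers summed to 335 and 379 CPM against 65.3 and 117 CPM, nearly all of it *Itgax*, with *Siglech* at most 0.936 CPM and *Flt3* at most 3.15 CPM in any library. None of these markers was at 0 in all libraries, and their part in the results below was not tested.

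*Bbc3* differed most. It was at 37.5 and 31.9 CPM in cKO and at 5.31 and 4.82 CPM in Ctrl sPre-B libraries, 6.85-fold higher (Log2FC = 2.78, SE 0.16, adjusted P = 1.98e-05), and ranked 41 by p-value among all genes. *Pmaip1* was at 3.69 and 3.66 CPM against 1.80 and 1.84 CPM (Log2FC = 1.01, SE 0.25, adjusted P = 0.0133), a call lost without Ctrl sPre-B replicate 1 (adjusted P = 0.0776), Ctrl sPre-B replicate 2 (0.0662) or cKO sPre-B replicate 1 (0.0564). *Bid* was at 22.4 and 20.9 CPM against 11.3 and 11.1 CPM (Log2FC = 0.95, SE 0.14, adjusted P = 0.00123). *Bid* shares 628 exon bases, 17.7% of its exon length, with *Bcl2l13* on the other strand, and *Bcl2l13* was higher in the same comparison (Log2FC = 0.30, SE 0.09, adjusted P = 0.0335). The call on *Bcl2l13* was lost without Ctrl sPre-B replicate 1 (adjusted P = 0.0953) or replicate 2 (0.189), any 1 of the 4 cKO libraries (0.0501 to 0.137), or both Ctrl replicate 2 libraries (0.113).

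The other 2 BH3-only genes, which had been lower in cKO early LPre-B cells, were near their Ctrl levels. *Bmf* was at 334 and 367 CPM in cKO and 363 and 416 CPM in Ctrl libraries, which overlapped (95% interval of the Log2FC -0.46 to 0.16, adjusted P = 0.424). *Bcl2l11* was at 57.2 and 58.6 CPM against 51.4 and 52.0 CPM (95% interval -0.05 to 0.37, adjusted P = 0.208). The share of *Bmf* in the length-scaled BH3-only RNA was 66.2% and 70.3% in cKO against 84.4% and 86.3% in Ctrl libraries, beside summed levels of 96.1 and 99.4 against 81.8 and 91.8 CPM per kb.

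The survival genes diverged. *Bcl2* was 2.04-fold higher in cKO cells but still low, at 1.80 and 1.73 CPM against 0.946 and 0.780 CPM (Log2FC = 1.03, SE 0.17, adjusted P = 0.00257). *Bcl2l1* was at 158 and 181 CPM in cKO and 279 and 275 CPM in Ctrl libraries, 1.64-fold lower (Log2FC = -0.71, SE 0.10, adjusted P = 0.000821). *Mcl1* was at 567 and 499 CPM against 478 and 469.9 CPM (95% interval of the Log2FC -0.07 to 0.41, adjusted P = 0.247). The length-scaled survival sum was 186 and 200.4 CPM per kb in cKO and 198 and 201 CPM per kb in Ctrl libraries, with *Mcl1* making up 78.6% and 82.8% of it in cKO against 69.6% in both Ctrl libraries.

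*Bax* was 1.77-fold higher in cKO sPre-B cells, at 54.0 and 48.9 CPM against 28.1 and 30.1 CPM (Log2FC = 0.82, SE 0.12, adjusted P = 0.00129). It shares 192 exon bases, 12.2% of its exon length, with *Gm45808* on the same strand. *Bak1* was at 51.4 and 50.1 CPM against 50.5 and 46.9 CPM, with overlapping groups (95% interval of the Log2FC -0.21 to 0.32, adjusted P = 0.735). Of the 2 pore formers, a difference between genotypes was thus called for *Bax* only, in both stages.

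**Figure D3:**
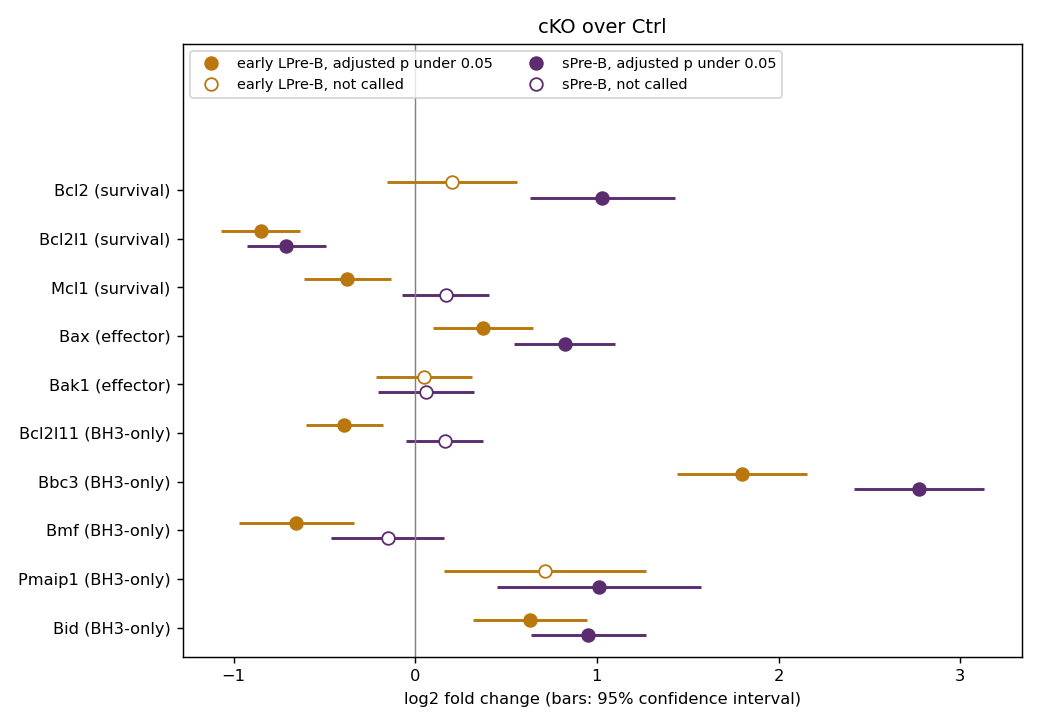
Log2FC of cKO over Ctrl for the 10 members in early LPre-B (ochre) and sPre-B cells (purple), with 95% confidence intervals from edgeR. Filled points passed an adjusted p of 0.05 and open points did not. *Bbc3* was higher in cKO cells of both stages (1.80 and 2.78) and *Bcl2l1* lower (-0.85 and -0.71).

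**Figure D4:**
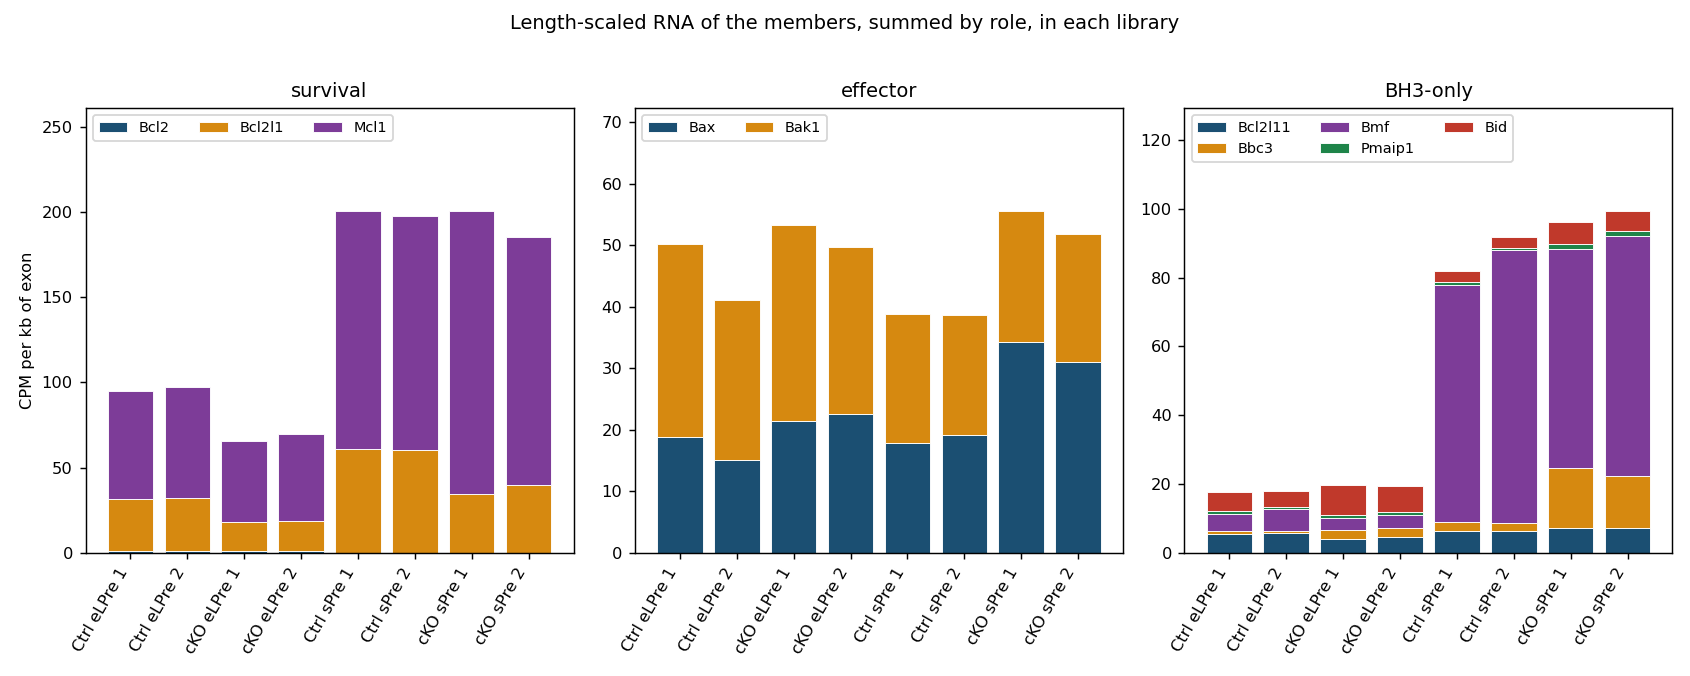
RNA of the members in CPM per kb of exon, stacked by gene within the survival, effector and BH3-only roles, for each of the 8 libraries (linear axes from 0). *Mcl1* fills most of the survival bars. The BH3-only bars are 17.8 to 19.9 CPM per kb high in early LPre-B and 81.8 to 99.4 in sPre-B libraries, where *Bmf* fills most of them.

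Whether the genotype effect itself differed between the stages was tested with the interaction term of the same fit. A call was made on 1 of the 10 members, *Bbc3*, where 4.24% of all tested genes passed (2.64% higher and 1.6% lower). The cKO over Ctrl difference of *Bbc3* was larger in sPre-B than in early LPre-B cells by 0.98 in log2 (SE 0.21, adjusted P = 0.0429). That call sat at the edge of the threshold, with an adjusted P of 0.0503 under median-ratio size factors and of 0.0595 to 0.159 when any single one of the 8 libraries was left out (0.122 without Ctrl early LPre-B replicate 1, 0.0725 without replicate 2, 0.119 without cKO early LPre-B replicate 1, 0.131 without replicate 2, 0.0689 without Ctrl sPre-B replicate 1, 0.159 without replicate 2, 0.135 without cKO sPre-B replicate 1, 0.0595 without replicate 2). The difference kept its direction in each of these fits, at 0.74 to 1.09.

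In the same fit no other member passed, while 6 of the 10 had an unadjusted p under 0.05, as had 20.8% of all tested genes. DESeq2 called 3 (*Bbc3*, *Bcl2l11* and *Mcl1*), beside 10.3% of all genes it gave an adjusted p. *Bcl2l11* was closest (0.55 in log2, SE 0.13, adjusted P = 0.0532) and passed by edgeR in a fit blocked on replicate (adjusted P = 0.044), without the expression filter (0.0419) and without immunoglobulin genes (0.0499). It was followed by *Mcl1* (0.54, SE 0.15, adjusted P = 0.0801) and *Bcl2* (0.83, SE 0.23, adjusted P = 0.0878). *Bcl2l1* had almost the same genotype difference in both stages (interaction 0.14, 95% interval -0.17 to 0.44, adjusted P = 0.618). *Mcl1*, *Bcl2l11* and *Bmf* were called lower in cKO early LPre-B but not in cKO sPre-B cells, yet their interaction terms did not pass (adjusted P = 0.186 for *Bmf*).

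The promoters of the members were searched for binding motifs of factors known to act on this family. RefSeq windows of 300 bases around transcript starts were used (250 bases before and 50 after, build mm10). They covered 9 of the 10 genes, 16 windows in all, and *Pmaip1* was left out. The FOXO motif GTAAACA, read on both strands, was present upstream of *Bcl2l11* (227 bases before the start) and of 1 start of *Bbc3* (167 bases before it, on the minus strand), and in 3.65% of all 32851 windows. Both genes are textbook FOXO targets, so the sites are shown with 20 bases on either side and the motif in capitals (plus strand, chr2:128125791-128125837 and chr7:16310074-16310120, the latter inside an intron of longer *Bbc3* transcripts).
Bcl2l11: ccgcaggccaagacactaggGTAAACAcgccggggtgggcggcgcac
Bbc3: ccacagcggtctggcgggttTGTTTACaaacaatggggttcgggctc

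The E-box CACGTG, on either strand, was found in windows of *Bax* and *Bbc3* (7.15% of all windows). Neither the STAT motif TTCNNNGAA (8.3% of all windows) nor the ATF4-CHOP motif TGATGNAA (3.97%) was found in the 16 windows. These are matches of letters in a short window and say nothing on binding.

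The counts in the gene lists that follow stand beside the shares of all tested genes that passed, which were 60.2% (Ctrl) and 62.6% (cKO) between stages and 31.3% (early LPre-B) and 34.7% (sPre-B) between genotypes. The median Log2FC of all genes in these comparisons was 0.02, 0.05, -0.06 and 0.01. Many of the list counts below also moved when a single library was left out. Among 16 transcription factors known to act on BCL2 family genes, all of which were tested, 4 were higher and 6 lower in cKO early LPre-B cells, and 6 were higher and 3 lower in cKO sPre-B cells. Without the 2 Ctrl replicate 2 libraries, 2 were higher and 7 lower in cKO early LPre-B cells. *Ddit3*, encoding CHOP, was at 54.0 and 54.6 CPM in cKO against 9.94 and 10.2 CPM in Ctrl early LPre-B libraries (Log2FC = 2.43, SE 0.14, adjusted P = 2.09e-05) and at 67.5 and 68.4 CPM against 14.0 and 18.7 CPM in sPre-B libraries (Log2FC = 2.05, SE 0.13, adjusted P = 3.56e-05). *Atf4*, its partner in the response to amino acid and endoplasmic reticulum stress, was 3.42-fold higher in early LPre-B (Log2FC = 1.77, SE 0.12, adjusted P = 5.22e-05) and 2.74-fold higher in sPre-B cells (Log2FC = 1.45, SE 0.12, adjusted P = 7.41e-05). *Bbc3* was higher in the same libraries, and whether these factors act on it here was not tested. RNA of *Trp53*, encoding p53, did not pass in either stage (Log2FC = 0.19, adjusted P = 0.216, and 0.05, adjusted P = 0.786), and p53 protein was not measured. The paper counts *Ddit3* among known targets of nonsense-mediated decay and found its RNA bound by phosphorylated UPF1 in activated splenic B cells.

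*Foxo1* was at 114 and 119.6 CPM in cKO against 231 and 234 CPM in Ctrl early LPre-B libraries (Log2FC = -0.998, SE 0.10, adjusted P = 0.00023) and at 533 and 503 CPM against 682 and 667 CPM in sPre-B libraries (Log2FC = -0.38, SE 0.10, adjusted P = 0.0175). The sPre-B call on *Foxo1* was lost without cKO sPre-B replicate 1 (adjusted P = 0.065) or replicate 2 (0.101). Its interaction term was 0.62 (SE 0.14, adjusted P = 0.0468), a call lost with median-ratio size factors (0.0554), without the 2 Ctrl replicate 2 libraries (0.188) and when any single one of the 8 libraries was left out (0.0821 to 0.184, at 0.52 to 0.66 in log2). From early LPre-B to sPre-B cells 8 of the 16 factors rose and 3 fell in Ctrl cells, and 8 rose and 2 fell in cKO cells. The 16 factors had a median Log2FC of 0.39 and 0.65 between stages and of -0.18 and 0.11 between genotypes. *Myc* fell 25.6-fold in Ctrl (Log2FC = -4.68, SE 0.22, adjusted P = 1.37e-06) and 15.8-fold in cKO cells (Log2FC = -3.98, SE 0.21, adjusted P = 2.23e-06), and *Relb*, of the NF-kB family, rose 6.07-fold and 6.95-fold.

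The wider BCL2 family was measured through 15 further genes, of which 10 passed the filter on low counts. In the stage comparison 3 rose and 5 fell in Ctrl cells, and 4 rose and 2 fell in cKO cells. *Bok*, a relative of *Bax*, fell 16.1-fold in Ctrl (Log2FC = -4.01, SE 0.48, adjusted P = 0.000119) and 6.56-fold in cKO cells (Log2FC = -2.71, SE 0.44, adjusted P = 0.000706), at 0.128 to 4.67 CPM in all libraries. *Bcl2l14* rose 16.7-fold and 8.02-fold and was at most 1.90 CPM. The wider family had a median Log2FC of -0.31 (Ctrl) and 0.21 (cKO) between stages and of -0.0092 (early LPre-B) and 0.30 (sPre-B) between genotypes. Between genotypes, 1 of the 10 was higher and 2 lower in cKO early LPre-B cells, and 2 were higher and 2 lower in cKO sPre-B cells. *Bcl2l15* was 8.04-fold higher in cKO sPre-B cells (Log2FC = 3.01, SE 0.49, adjusted P = 0.00214). The mitophagy receptors *Bnip3* and *Bnip3l* were lower in cKO cells, *Bnip3* by 1.85-fold in early LPre-B (adjusted P = 0.00578) and 1.90-fold in sPre-B cells (adjusted P = 0.00404), and *Bnip3l* by 1.47-fold (adjusted P = 0.0109) and 1.62-fold (adjusted P = 0.00346). In early LPre-B cells the call on *Bnip3* was lost without cKO replicate 1 (adjusted P = 0.0523), and that on *Bnip3l* without Ctrl replicate 1 (adjusted P = 0.0778) or cKO replicate 1 (0.083). In the same cells, *Bcl2l14* was the 1 further family gene called higher in cKO, and it was not called without the 2 Ctrl replicate 2 libraries (adjusted P = 0.0544).

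Of 13 genes for the apoptosome, caspases and their inhibitors, 4 rose and 6 fell from early LPre-B to sPre-B cells in each genotype, 2 were higher and 6 lower in cKO early LPre-B cells, and 3 were higher and 4 lower in cKO sPre-B cells. Without the 2 Ctrl replicate 2 libraries, 2 rather than 6 were lower in cKO early LPre-B cells. Their median Log2FC was -0.22, -0.20, -0.27 and -0.13 in these comparisons. *Birc3*, encoding the inhibitor cIAP2, rose from 34.5 and 44.7 CPM to 253 and 268 CPM in Ctrl cells (Log2FC = 2.72, SE 0.16, adjusted P = 2.82e-06) and from 23.9 and 28.2 CPM to 446 and 376 CPM in cKO cells (Log2FC = 3.98, SE 0.17, adjusted P = 9.87e-07). The difference between these rises was 1.26 in log2 (SE 0.21, adjusted P = 0.0187). For *Birc3* that call was lost without Ctrl early LPre-B replicate 2 (adjusted P = 0.0576), Ctrl sPre-B replicate 2 (0.0555), both of these (0.11), cKO early LPre-B replicate 1 (0.079) or cKO sPre-B replicate 1 (0.0552). *Birc5*, encoding survivin, which peaks in dividing cells, fell 9.08-fold in Ctrl and 4.58-fold in cKO cells. The initiator caspase gene *Casp2* was higher in cKO cells, 1.61-fold in early LPre-B (adjusted P = 0.00153) and 1.75-fold in sPre-B cells (adjusted P = 0.00055).

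Of 10 death receptor pathway genes 9 were tested. In the stage comparison 1 rose and 3 fell in each genotype, and between genotypes 1 was lower in cKO early LPre-B cells while 1 was higher and 1 lower in cKO sPre-B cells. Without the 2 Ctrl replicate 2 libraries, none rose and 2 fell in Ctrl cells, and none was higher and 1 lower in cKO sPre-B cells. The median Log2FC over the 9 genes was -0.28, 0.018, -0.26 and -0.07. *Tnfsf10*, encoding the ligand TRAIL, was at 37.2 and 29.5 CPM in Ctrl against 12.3 and 13.1 CPM in cKO early LPre-B libraries (Log2FC = -1.39, SE 0.27, adjusted P = 0.00603) and at most 2.03 CPM in sPre-B libraries. *Casp8*, whose product cleaves BID, was 1.48-fold lower in cKO sPre-B cells (adjusted P = 0.00233), where *Bid* was higher.

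Of 13 partners and regulators of the turnover of BCL2 proteins, 12 were tested. In Ctrl cells 4 rose and 5 fell from early LPre-B to sPre-B, and in cKO cells 3 rose and 5 fell. *Pim2*, a survival kinase that phosphorylates BAD, rose 8.98-fold in Ctrl (Log2FC = 3.17, SE 0.12, adjusted P = 8.93e-07) and 9.79-fold in cKO cells (Log2FC = 3.29, SE 0.13, adjusted P = 7.48e-07). *Dynll2*, encoding the dynein light chain DLC2 that binds BMF, fell in the same transition in which *Bmf* rose, 3.9-fold in Ctrl (Log2FC = -1.96, SE 0.15, adjusted P = 8.87e-06) and 3.48-fold in cKO cells (Log2FC = -1.80, SE 0.14, adjusted P = 1.32e-05). Between genotypes, 4 of the 12 were lower in cKO early LPre-B cells, and 2 were higher and 2 lower in cKO sPre-B cells (1 and 5 without the 2 Ctrl replicate 2 libraries). Over the 12 genes the median Log2FC was -0.30 and -0.24 between stages and -0.22 and -0.20 between genotypes. *Fbxw7*, a subunit of a ubiquitin ligase that targets MCL1, was 1.42-fold lower in cKO early LPre-B cells (adjusted P = 0.00541).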

How the data were processed

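Reads of 8 libraries (directional rRNA-depleted total RNA, DNBSEQ-T7) were trimmed with Trim Galore, aligned to mm10 with HISAT2 as unstranded pairs and counted per Entrez gene with featureCounts, after the study's methods, and the authors deposited raw counts. Versions of these tools are not given in the sources used here. RefSeq named 25275 of 27179 gene identifiers. In R 4.3.3, edgeR 4.0.16 filtered genes by group (filterByExpr, leaving 17700), scaled libraries with TMM factors (0.862 to 1.09) and fitted 1 mean per group to all 8 libraries, tested by quasi-likelihood F and adjusted over all genes (Benjamini-Hochberg) (common biological coefficient of variation 0.174). A gene was called at an adjusted p under 0.05. CPM values use these scaled library sizes, and CPM per kb divides them by the union of GENCODE vM21 exons. The fit was tested on simulated data. Alternatives were median-ratio size factors, DESeq2 1.42.0, no expression filter, a replicate block, only the 4 libraries compared, no immunoglobulin genes and each library left out. Only intervals and floors of counting error follow from depth. The members and all gene lists were chosen with earlier results of these data known. From each further list, at most 3 called genes per comparison were eligible to be named, those of largest change whose groups did not overlap and that had 50 or more counts in both libraries of the group where they were higher. *Bcl2l13*, *Trp53*, and the smaller *Foxo1* difference and interaction terms of *Foxo1* and *Birc3* were named after their values were seen. *Bcl2l14* did not meet the naming rule in the early LPre-B comparison between genotypes, where it is also named. *Bcl2l12* and *Hrk* stood on 2 lists and counted on both. With 2 pairs per comparison and no label that pairs the samples, same-numbered libraries were treated as unpaired, although the 2 Ctrl replicate 2 libraries also share their *Xist* and Y-linked counts. Sequences came from GENCODE vM21 transcripts and RefSeq promoter windows (GRCm38), and no protein sequence was used here.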

Additional observations from a re-analysis of the deposited data

Results flagged for a closer look

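The difference between stages in the cKO over Ctrl effect on *Bbc3* (PUMA) stood out, because the genotype effect of this gene differed between the stages by a test of that difference itself. *Bbc3* was higher in cKO than in Ctrl cells by 1.80 in log2 at the early LPre-B and by 2.78 at the sPre-B stage, and the difference of 0.98 passed edgeR's quasi-likelihood test (adjusted P = 0.0429, higher in both cKO libraries than in both Ctrl libraries of each stage). It was the only member so called, and the call was lost whenever any one library was left out.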

How the results depend on the processing

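Over the 50 member results (10 genes in 5 comparisons), 675 of 740 values under the alternatives kept their direction and their side of the threshold, 37 kept their direction but lost the call, 12 gained one and 16 changed sign. Sign changes fell on members with no call. In the Ctrl stage comparison *Bax* was at -0.0064 and *Pmaip1* at -0.10 without the 2 Ctrl replicate 2 libraries, and *Pmaip1* ranged from -0.085 to 0.56 with 1 library left out. The cKO over Ctrl difference of *Bak1* ranged from -0.065 to 0.23 with 1 library left out in early LPre-B cells and from -0.029 to 0.077 in sPre-B cells, and was -0.031 and -0.030 without those 2 libraries. The *Bak1* interaction was -0.031 with median-ratio factors, -0.032 by DESeq2 and -0.21 to 0.12 with 1 library left out, and that of *Pmaip1* ranged from -0.15 to 0.49.

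In early LPre-B cells the members higher in cKO ranged from 1 to 4 with 1 library left out, and the members lower from 1 to 4. The lower count was 2 with only the 4 libraries compared and 2 without the 2 Ctrl replicate 2 libraries. Members with a positive interaction call numbered 0 with median-ratio factors, 3 by DESeq2, 2 without the expression filter, 2 without immunoglobulin genes, 0 with any 1 library left out and 0 without the 2 Ctrl replicate 2 libraries. The cause was not tested.

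In the fit that took replicate numbers as a block, 2 members had an interaction call (*Bbc3* and *Bcl2l11*, the latter 0.55 with adjusted P = 0.044) and *Pmaip1* was called in early LPre-B cells (0.73, adjusted P = 0.043). It changed no other member's call. The correlation of same-numbered deviations across genes was 0.155 between genotypes in early LPre-B, 0.0858 in sPre-B, 0.395 between stages in Ctrl and 0.254 in cKO cells.

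Over all genes, the interaction called 467 higher and 283 lower, against 1022 and 696 by DESeq2, 1078 and 497 without the filter, and 59 and 33 without the 2 Ctrl replicate 2 libraries. With 1 library left out these counts ranged from 84 to 569 and from 42 to 333. Genes higher and lower in cKO ranged from 1634 to 2790 and 1289 to 2717 in early LPre-B cells, and from 2258 to 3381 and 1366 to 3256 in sPre-B cells. A group left with 1 library was assumed to vary like the others. *Bcl2* had 80 and 55 counts in the Ctrl sPre-B libraries and *Pmaip1* 100 to 458 counts in the 8 libraries.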

Other observations

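For each member, the tested gene whose log2(CPM + 0.5) ran closest to it over the 8 libraries was *Pola2* for *Bcl2* (Pearson's r = 0.999), *Trappc2* for *Bcl2l1* (0.997), *Trmt12* for *Mcl1* (0.998), *Fhdc1* for *Bax* (0.993), *Gm15772* for *Bak1* (0.995), *Map3k3* for *Bcl2l11* (0.999), *Alg1* for *Bbc3* (0.995), *4930599N23Rik* for *Bmf* (0.999), *Naglu* for *Pmaip1* (0.98) and *Doc2a* for *Bid* (0.991). These are descriptions over 8 libraries that share their 4 groups, each chosen as the highest value among 17700 genes.

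GENCODE annotates transcripts with the nonsense-mediated decay biotype for *Bak1* (2 of 4 transcripts) and *Bid* (1 of 5), and for none of the other 8 members. *Bak1* did not differ between the genotypes in either stage beyond the spread between libraries, while *Bid* was called higher in cKO cells of both stages. Of the members with no such transcript, *Bbc3* and *Bax* were also called higher in both stages and *Bcl2l1* lower. The early LPre-B calls on *Bid* and *Bax* were lost in some fits with 1 library left out. Whether the annotated transcripts bear on these levels was not tested. The counts are per gene, so the levels of single transcripts are not known here.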
